A study of Mus musculus with 8 samples.

Results

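The Wnt ligands, receptors and antagonists were followed in whole lungs of untreated mice, as 44 genes chosen by symbol out of 20920 gene symbols on the array. They comprised every Wnt, frizzled (Fzd), secreted frizzled-related (Sfrp) and Dickkopf (Dkk) gene that the annotation lists with a number, together with Frzb, Wif1, Lrp5, Lrp6, Axin1, Axin2 and Ctnnb1. These genes were read by 61 probes and fell into 19 ligands, 12 receptors and co-receptors, 10 secreted antagonists and 3 intracellular components. RNA of each mouse was labelled with Cy5 and hybridised to 1 of 8 Agilent arrays against Cy3-labelled RNA of a common pool of mouse lungs. Every value below is therefore a log2 ratio of a mouse to that pool, and a difference of 1 on this scale is a doubling.

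The 4 wild-type mice (WT1 to WT4) and the 4 Scgb3a2-transgenic mice (TG1 to TG4) were C57BL/6 males of 8 to 10 weeks. The transgene was a mouse Scgb3a2 cDNA, encoding a secretoglobin of the airway, under the human surfactant protein C promoter, which is active in alveolar type II cells, injected into C57BL/6NCr eggs. The line came from 1 founder, so an effect of the insertion site and an effect of the protein cannot be told apart. In whole lung, fewer cells of a type and less RNA per cell cannot be told apart either. The log2 ratios of the Scgb3a2 probe were 0.01, −0.39, 0.58 and −0.56 in the wild-type lungs, all below those of 3 transgenic lungs at 0.70, 0.74 and 1.26. The fourth transgenic lung, TG2, was at 0.47, below WT3.

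The arrays had a median sample signal of 204 to 277.5 over a background of 55.5 to 59, and 32257 to 34709 probes were well above background. Among marker lists of lung cell types, type II cell probes were lower in the transgenic lungs for 11 of 12, with mean log2 ratios of 0.21 to 1.16 in wild-type and −0.19 to 0.39 in transgenic lungs. Adipocyte probes were lower for 9 of 9, at 0.31 to 0.93 against −0.62 to 0.44, and striated and cardiac muscle probes for 7 of 9, at 0.06 to 0.35 against −0.22 to 0.08. Fibroblast probes were higher for 7 of 10, at −0.87 to −0.59 against −0.76 to −0.53. Endothelial probes were higher for 4 of 5, at −0.18 to 0.52 against 0.34 to 0.67, and lymphocyte probes for 4 of 6, at −0.46 to 0.14 against −0.09 to 0.64. Type I cell probes were lower for 6 of 7, at 0.06 to 0.36 against −0.62 to 0.41. In the remaining lists, probes were higher for 4 of 6 of airway epithelium, 5 of 7 erythroid and 3 of 5 macrophage. They were higher for 2 of 3 of mesothelium and 4 of 9 of smooth muscle. Of all tested probes, 50.4% were higher. Of the fibroblast markers, Dcn was well above background on no array. The part of cell content in the results below was not tested.

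Wnt proteins are secreted lipid-modified ligands that bind frizzled receptors together with the co-receptors Lrp5 and Lrp6. In the canonical branch this stops the destruction complex, which holds Axin, from degrading β-catenin, which then acts with TCF and LEF factors at target genes. Sfrp proteins, Frzb and Wif1 bind ligands outside the cell and Dkk proteins act on the co-receptors. In lung, Wnt2 and Wnt5a come mainly from mesenchyme and Wnt7b from epithelium, and the pathway is known for its roles in branching, in alveolar repair and in fibrosis.

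Of the 44 genes, 35 had a probe well above background on all 8 arrays and 37 could be tested, with 52 probes. The Wnt3, Wnt10a, Wnt16 and Dkk2 probes were not well above background on a single one of the 8 arrays. Wnt2b and Dkk4 were well above it on 1 wild-type array each and Wnt8a on 1 transgenic array. The lung therefore gave a measurable signal for 14 of 19 ligand genes, for 12 of 12 receptor genes, for 8 of 10 antagonist genes and for all 3 intracellular components.

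The comparison asked whether an untreated lung that makes extra Scgb3a2 differs in these genes from a wild-type lung. Among the tested genes, 3 had an unadjusted p under 0.05 in limma's test, the ligands Wnt2 and Wnt5a and the receptor Fzd1. All 3 were higher in transgenic lungs, and no tested member passed in the other direction. They came from 4 of the 52 probes tested, beside 1.12% of all 32645 probes higher and 0.974% lower at that threshold, 2.09% in all. The 4 became 0 where the background model was fitted on all spots or only the outlier flags of the spot were used. They became 1 with median-centring, with the sample channel alone, or without WT1, TG2 or TG3. Of all probes, 0.414% and 0.432% were higher at that threshold where the members had 0. The share was 0.368% with median-centring, 0.267% with the sample channel alone, and 0.959%, 0.775% and 0.946% without WT1, TG2 or TG3. Wnt2 alone also passed the study's limit of 1.5-fold, which 0.23% of all probes passed. After Benjamini-Hochberg adjustment over all probes, 0 members and 0 probes in all were called by limma, and every member had an adjusted p of 1.00. The difference between genotypes was positive for 30 tested member probes and negative for 22, and its median was 0.03, beside 50.4% of all probes higher and an overall median of 0.00.

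**Figure D1:**
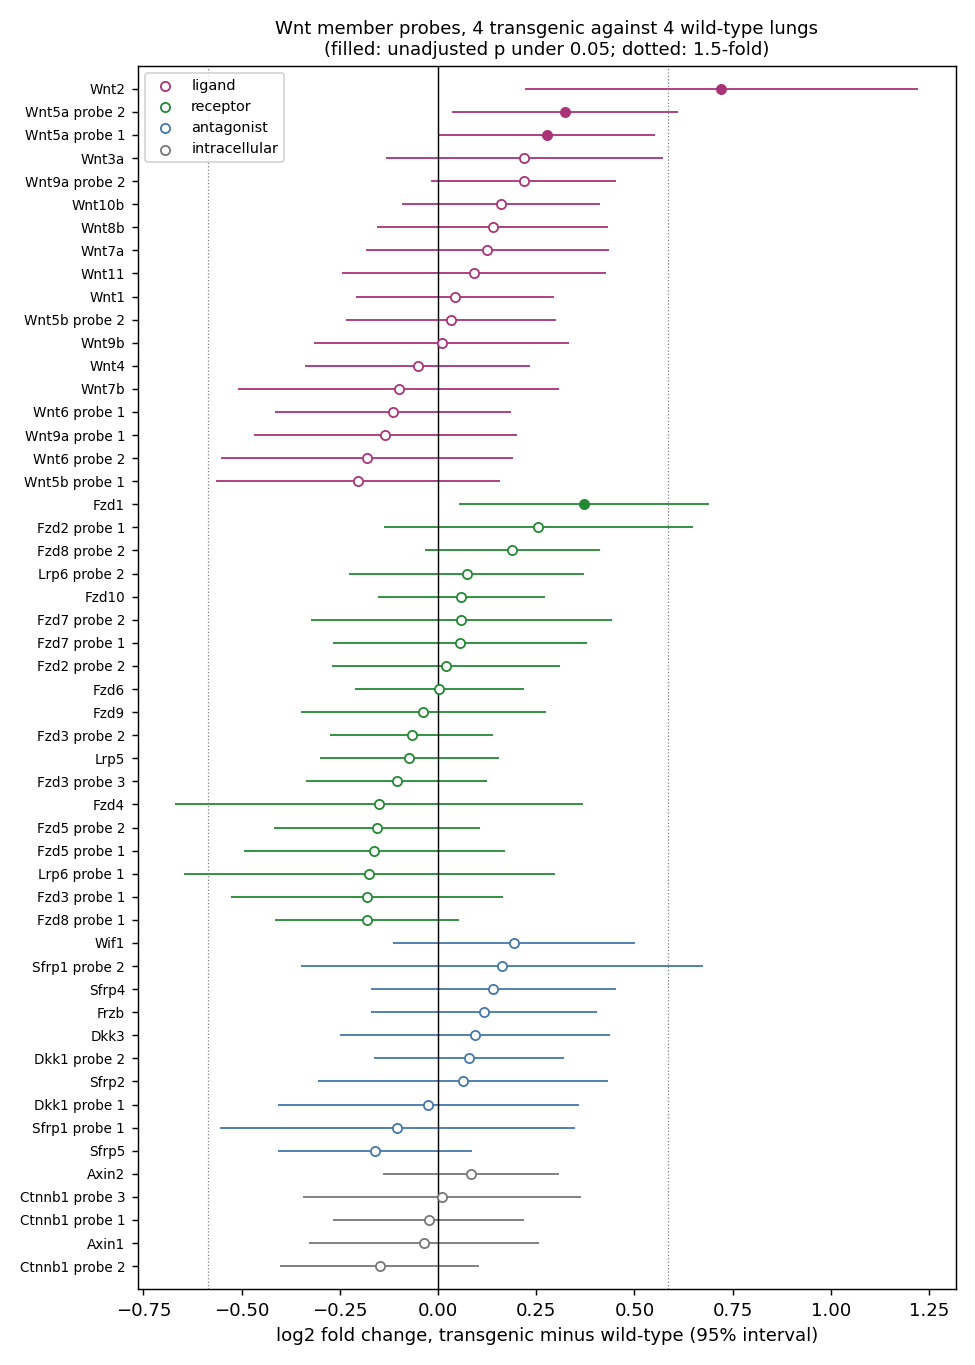
Log2 fold change, transgenic minus wild-type, of each of the 52 tested member probes with its 95% interval from limma, coloured by role (4 lungs per genotype). Filled points had an unadjusted p under 0.05, dotted lines mark 1.5-fold, and probes of 1 gene are numbered from the brightest. Only Wnt2 at 0.72 lies past a dotted line, and the intervals of all but the Wnt2, Wnt5a and Fzd1 probes cross 0.

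Wnt2, a ligand of the lung mesenchyme, differed most among the members. Its log2 ratios were −0.87, −0.55, −0.06 and 0.35 in WT1 to WT4 and 0.75, 0.23, 0.41 and 0.37 in TG1 to TG4. The transgenic lungs lay close together, while the wild-type lungs were spread from the lowest value of all up to WT4, which lay among the transgenic values. The mean was −0.28 ± 0.54 in wild-type and 0.44 ± 0.22 in transgenic lungs (SD, n = 4 each). The difference was 0.72 (SE 0.23, 95% interval 0.22 to 1.22), or 1.65-fold, with an unadjusted p of 0.0088 in limma, rank 67 among all probes. By an exact two-sided permutation test over the 8 arrays, whose smallest possible p is 0.0286, p was 0.0571.

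Each slide carried 1 lung of each genotype, and Wnt2 was higher in the transgenic lung on 4 of 4 slides, by 0.44, 1.61, 0.78 and 0.06. The slide of WT1 and TG1 thus gave most of the difference and the slide of WT4 and TG3 almost none. With slide as a block, limma's unadjusted p was 0.0083, beside 3.71% of all probes with an unadjusted p under 0.05 in that fit. Within the scan days the difference was 1.02 on the first and 0.42 on the second. Without WT1 it was 0.53 and under 1.5-fold, and where the background model was fitted on all spots it was 0.38, with an unadjusted p of 0.055. Over all 8 arrays the Wnt2 probe had an SD of 0.54, above that of 99.1% of all tested probes.

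Wnt5a, a ligand best known for signalling that does not go through β-catenin, was read by 2 probes, and both were higher. The brighter probe gave −1.01, −0.91, −0.84 and −0.57 in WT1 to WT4 and −0.62, −0.59, −0.31 and −0.70 in TG1 to TG4. WT4 was again the highest wild-type lung and again lay among the transgenic values, so the groups overlapped. The means were −0.83 ± 0.19 and −0.56 ± 0.17 (SD, n = 4 each), a difference of 0.28 (SE 0.13) with an unadjusted limma p of 0.050 and an exact permutation p of 0.114. The dimmer probe gave −0.72, −0.60, −0.43 and −0.28 in wild-type and 0.01, −0.11, −0.21 and −0.44 in transgenic lungs, a difference of 0.32 (SE 0.13, limma p 0.031, exact permutation p 0.0857). The transgenic lung was higher on 4 of 4 slides on the brighter probe and on 3 of 4 on the dimmer, with −0.01 on the slide of WT3 and TG4. On the brighter probe the difference was 0.27 on the first scan day and 0.29 on the second. The brighter probe lay so close to the threshold that its unadjusted p was over 0.05 under 17 of 24 other settings.

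No tested probe of the other ligands had an unadjusted limma p under 0.05. The next highest was Wnt3a at 0.22, and Wnt10b, Wnt8b and Wnt7a followed at 0.16, 0.14 and 0.13. Wnt11, a ligand linked to cell movement, gave 0.13 ± 0.28 in wild-type and 0.22 ± 0.21 in transgenic lungs, a difference of 0.09 (SE 0.15, limma p 0.558). Wnt7b, the epithelial ligand, gave −0.08 ± 0.21 over 3 wild-type lungs and −0.18 ± 0.34 over 4 transgenic lungs, since its spot on WT3 was left out as an outlier, and the difference was −0.10 (SE 0.18, limma p 0.599). Wnt5b, the paralog of Wnt5a, had the lowest difference of the tested ligands, −0.20 (SE 0.16, limma p 0.237). That value rested on WT3, at 0.65, and on TG1 to TG3, at 0.15, −0.05 and 0.02, with no value for TG4, while the second Wnt5b probe was 0.03 higher.

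The 2 probes of Wnt9a differed in opposite directions. Its dimmer probe was the only tested member probe whose genotypes did not overlap, with −0.19, −0.45, −0.08 and −0.10 in wild-type and −0.03, 0.01, −0.03 and 0.10 in transgenic lungs. Genotypes did not overlap for 1.97% of all probes, 1.07% higher and 0.904% lower, and this difference of 0.22 (SE 0.11) had an unadjusted limma p of 0.066. The brighter Wnt9a probe differed the other way, by −0.13 (SE 0.15).

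**Figure D2:**
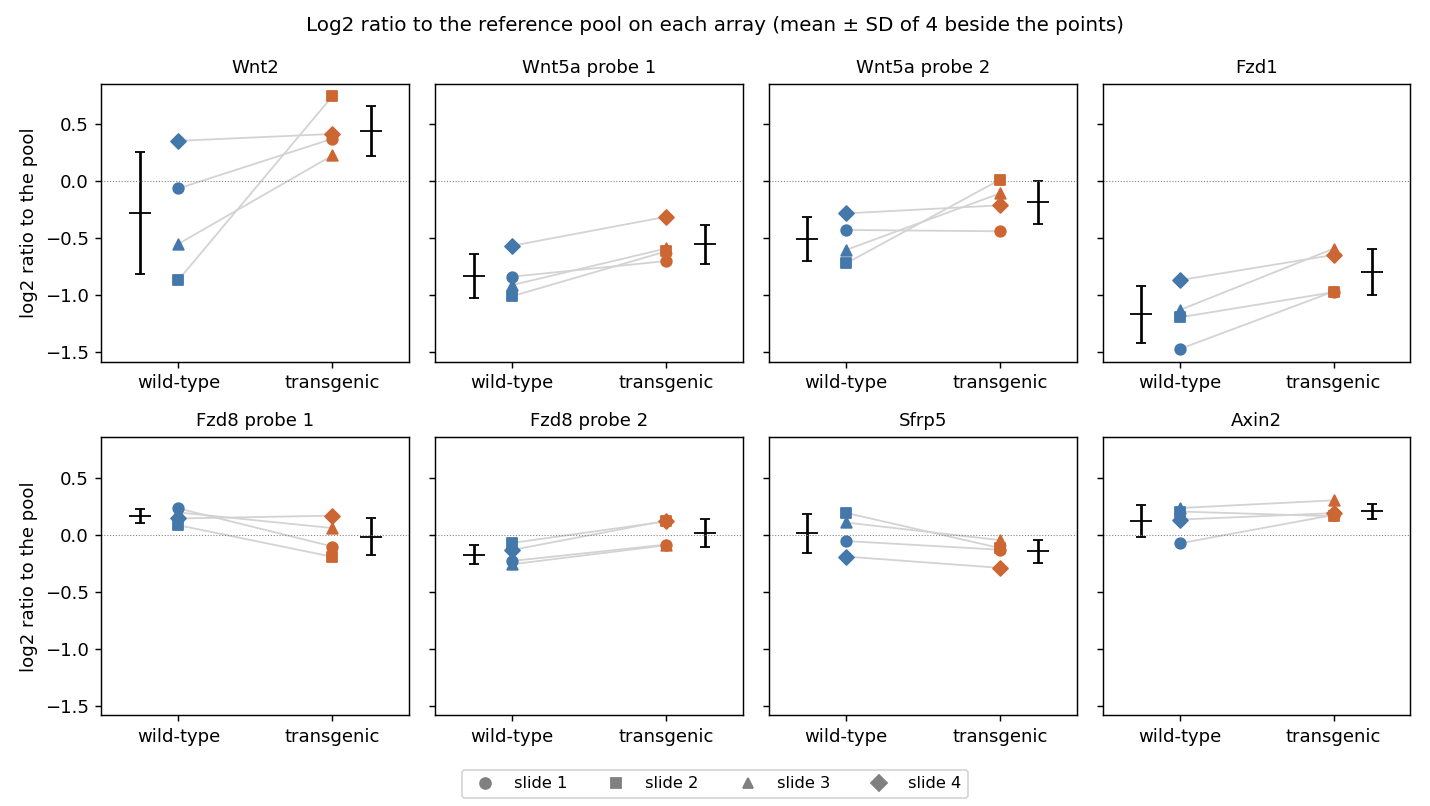
Log2 ratio to the pool (y axis) on each array for 8 member probes, with wild-type lungs on the left and transgenic lungs on the right of each panel, grey lines joining the 2 arrays of a slide, and mean ± SD of the 4 lungs beside the points. The Wnt2 and Fzd1 panels and the brighter Wnt5a probe slope up on every slide, and the Sfrp5 values go down on every slide. The means of the Fzd8 probes differ in opposite directions, but on slide 4 both probes rise.

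Among the receptors, Fzd1, a frizzled that can pass on canonical signals, was higher in transgenic lungs. Its log2 ratios were −1.20, −1.13, −1.48 and −0.87 in WT1 to WT4 and −0.98, −0.59, −0.65 and −0.97 in TG1 to TG4. All 8 lungs lay below the pool, and WT4 was once more the wild-type lung that overlapped with the transgenic lungs. The means were −1.17 ± 0.25 and −0.80 ± 0.20 (SD, n = 4 each). The difference was 0.37 (SE 0.15), or 1.29-fold, with an unadjusted limma p of 0.026 and an exact permutation p of 0.0857. It was positive on 4 of 4 slides, at 0.51, 0.22, 0.54 and 0.22, and was 0.36 and 0.38 on the 2 scan days. With slide as a block limma's unadjusted p was 0.0056, where 3.71% of all probes were under 0.05. The difference was 0.20 with an unadjusted limma p of 0.265 where the sample channel was used alone. It was 0.18 where the background model was fitted on all spots. Its unadjusted p was over 0.05 under 11 of 23 other settings, among them the methods' t-test at 0.060.

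The other 11 receptor and co-receptor genes held 18 tested probes, of which 8 were higher and 10 lower, and none passed. Fzd2 was 0.26 higher on its brighter probe (SE 0.18, limma p 0.182) and 0.02 higher on the other. Fzd3, a receptor of planar polarity signalling, was lower on all 3 of its probes, by −0.18, −0.07 and −0.10, none of them past the threshold. Fzd4, the receptor of the ligand norrin in vessels, had values for only 3 wild-type and 2 transgenic lungs, and its difference was −0.15 (SE 0.23). With slide as a block the Fzd4 difference was −0.59 (unadjusted limma p 0.037), but only 1 slide held values for both genotypes.

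Fzd8 had 2 probes that differed in opposite directions. The study had itself listed the dimmer one on these arrays, so the values of that probe are a description and no independent evidence. The brighter probe gave 0.08, 0.20, 0.23 and 0.14 in wild-type and −0.19, 0.06, 0.17 and −0.10 in transgenic lungs, a difference of −0.18 (SE 0.11, limma p 0.116, exact permutation p 0.0857). The dimmer probe gave −0.07, −0.26, −0.23 and −0.13 in wild-type and 0.12, −0.09, 0.12 and −0.09 in transgenic lungs, a difference of 0.19 (SE 0.10, limma p 0.087, exact permutation p 0.0857), and was higher on 4 of 4 slides. Its signal was well above background on 2 of the wild-type arrays and all 4 transgenic ones, and that of the brighter probe on all 8. From Agilent's own processed signals the dimmer probe differed by 0.61, and with a normexp offset of 0 by 0.48, so the size of its difference depended on the processing.

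Fzd10 was read by a brighter probe that differed by 0.06 (SE 0.10, limma p 0.549) and by a dim probe whose signal was well above background on a single wild-type array and on 0 transgenic ones. The dim probe was left out of the test. Its genotypes did not overlap, at −0.01 to 0.06 against −0.06 to −0.04, where 1.97% of all tested probes did not overlap. The study had itself listed this dim probe on these arrays, so its values are no independent evidence. Both means lay near the background, so no fold is given.

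The co-receptors Lrp5 and Lrp6, which take up the Wnt signal beside the frizzleds, differed by −0.07 (SE 0.10, limma p 0.497) and −0.17 (SE 0.22, limma p 0.435) on their brighter or single probes. Lrp6 spread widely within both genotypes, from −0.83 to 0.06 in wild-type and from −0.85 to −0.05 in transgenic lungs, and its dimmer probe was 0.07 higher.

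Among the secreted antagonists, the difference was positive for 7 of 10 tested probes and negative for 3, its median was 0.09, and none passed. Wif1, which binds Wnt ligands directly, was 0.16, 0.21, 0.21 and −0.01 in wild-type and 0.76, 0.12, 0.19 and 0.28 in transgenic lungs. TG1 alone stood above the others, and the difference was 0.19 (SE 0.14, limma p 0.194). From Agilent's processed signals the Wif1 difference was 0.87 (unadjusted limma p 0.044).

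Sfrp1, a decoy receptor of the lung mesenchyme, lay below the pool on all 8 arrays with both of its probes. The brighter probe had means of −1.25 ± 0.34 and −1.36 ± 0.38 and the dimmer −1.73 ± 0.33 and −1.57 ± 0.49 (SD, n = 4 each). The differences, −0.10 (SE 0.21) and 0.16 (SE 0.23), had opposite signs and were smaller than the spread within either genotype. Frzb, also called Sfrp3, was 0.12 higher (SE 0.13, limma p 0.389), and Dkk3, a divergent Dickkopf, 0.09 higher (SE 0.16, limma p 0.556) over 3 wild-type and 4 transgenic lungs. Sfrp2 and Sfrp4 were 0.06 and 0.14 higher.

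Sfrp5, another decoy receptor, gave 0.19, 0.11, −0.05 and −0.19 in wild-type and −0.12, −0.05, −0.29 and −0.13 in transgenic lungs. It was the only antagonist well above background on all 4 arrays of one genotype, the wild-type, and on none of the other. It therefore passed the filter only through the genotype where it was brighter, and the study had itself listed this probe on these arrays, so its values are a description and no independent evidence. The difference was −0.16 (SE 0.11, adjusted limma p 1.00). Limma's interval for this difference ran from −0.41 to 0.09 and so held both signs. In the sample channel the probe was 1.08-fold brighter in the wild-type lungs by the observed means. Replacing transgenic signals below the lowest signal well above background on their array left the transgenic mean unchanged. The 1.08-fold is therefore an observed ratio and no lower bound. With the sample channel alone the fitted difference was −0.10. From Agilent's processed signals the difference was −1.25.

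β-Catenin (Ctnnb1), which carries the canonical signal to the nucleus, differed by −0.02 (SE 0.11, limma p 0.834) on its brightest probe, over 4 wild-type and 3 transgenic lungs. Its other probes differed by −0.15 and 0.01. Axin2, both a brake on β-catenin and a direct readout of canonical signalling, gave 0.20, 0.23, −0.08 and 0.13 in wild-type and 0.16, 0.30, 0.19 and 0.17 in transgenic lungs. WT3 lay below the other 7 lungs, which spanned 0.13 to 0.30. The Axin2 difference was 0.08 (SE 0.10, 95% interval −0.14 to 0.31, limma p 0.434), and Axin1 differed by −0.04.

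Against the pool, 8 of 52 member probes lay below it on every array that gave a value and 7 above it, where 20.4% and 22% of all tested probes did. Antagonists took 4 of the 8, with both Sfrp1 probes, Sfrp2 and Frzb, and the others were Fzd1, one probe each of Wnt5a and Fzd3, and Ctnnb1. The mean over all 8 arrays was −1.31 for the brighter Sfrp1 probe, −0.98 for Fzd1, −0.69 for the brighter Wnt5a probe and −0.51 for Sfrp2. The largest means above the pool were 0.48 for Fzd7, 0.33 for Dkk1 and 0.33 for Wnt3a. The methods describe the pool as equal amounts of RNA of each sample, which the files cannot check, and a pool of these 8 lungs alone could not hold more of an RNA than each of them. The pool carried Cy3 on every array and dyes were not swapped, so the part of the dye in these ratios was not tested. Both genotypes carried Cy5, and the dye and the pool cancel in a difference between genotypes.

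**Figure D3:**
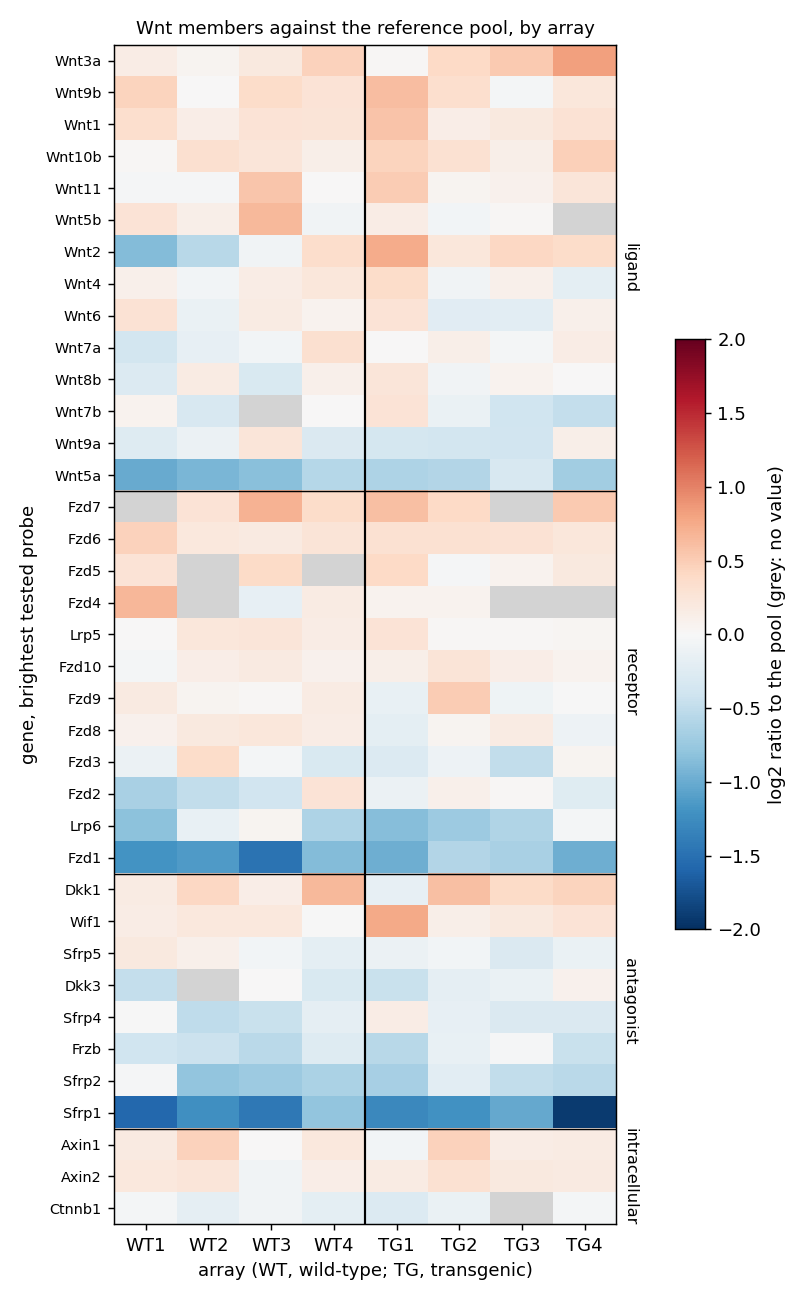
Log2 ratio to the pool (colour, blue below and red above, grey without a value) of the brightest tested probe of each of the 37 tested genes (rows, by role) on each array (columns, WT wild-type and TG transgenic lungs). Sfrp1, Fzd1 and Wnt5a are blue in all 8 columns, and Wnt2 goes from blue in WT1 and WT2 to red in WT4 and in the 4 transgenic lungs.

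The median SD of the member probes over the 8 arrays was 0.20, beside 0.18 over all tested probes. After Wnt2, the genes that varied most at their brightest tested probe were Lrp6 with an SD of 0.37, Sfrp1 with 0.34, Fzd2 with 0.32 and Fzd4 with 0.30. Those that varied least were Fzd6, Fzd10 and Ctnnb1, each with an SD of 0.09. Of 13 genes with several tested probes, 6 had the same sign of difference on every probe, among them Wnt5a, Wnt6, Fzd2, Fzd3, Fzd5 and Fzd7, and 7 did not.

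The rest of the pathway was described by lists of 74 further genes, of which 70 had a tested probe. The difference was positive for 68 of their 120 probes and negative for 52, and its median was 0.01. At an unadjusted limma p under 0.05, 5 were higher and 0 lower, beside 1.12% and 0.974% of all probes, and 0 passed after adjustment. The planar polarity list had 17 of 23 probes higher, beside 50.4% of all probes, and a median of 0.07. These 23 probes read only 10 genes, so several of them share a gene. In it, Vangl2, a core polarity protein, was 0.29 higher (SE 0.13, limma p 0.048). Signal transduction had 25 of 45 higher, co-receptors and receptor turnover 12 of 21, and secretion and co-ligands 4 of 10.

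Known targets of the pathway had 10 of 21 probes higher and a median of −0.02, and 3 of them were among the 5 higher. Wisp2, a matricellular protein of the CCN family, gave −0.69, −0.81, −0.31 and 0.13 in wild-type and 0.61, 0.09, −0.11 and 0.22 in transgenic lungs. Its difference of 0.62 (SE 0.21, limma p 0.012) was the only one of the 5 past 1.5-fold, and WT4 was again the highest wild-type lung. Its relative Wisp1, which the study had itself listed as changed on these arrays and which is therefore no independent evidence, was 0.38 higher (SE 0.15, limma p 0.025).

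Cyclin D1 (Ccnd1), which drives cells into division, gave −0.36, −0.47, −0.46 and −0.59 in wild-type and −0.20, −0.31, −0.27 and −0.14 in transgenic lungs. Its genotypes did not overlap, as for 2 of the 120 probes of these lists and 1.97% of all tested probes. The other of the 2 was in the signal transduction list. The Ccnd1 difference was 0.24 (SE 0.10, limma p 0.030). Ctnnbip1, an inhibitor that keeps β-catenin from TCF factors, was 0.36 higher (SE 0.12, limma p 0.013). Other targets such as Nkd1, Sp5 and Myc differed by −0.17 to 0.09, and the transcription factors Lef1 and Tcf7, which also mark T cells, by 0.20 to 0.25 on their tested probes, with none of these past the threshold.

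**Figure D4:**
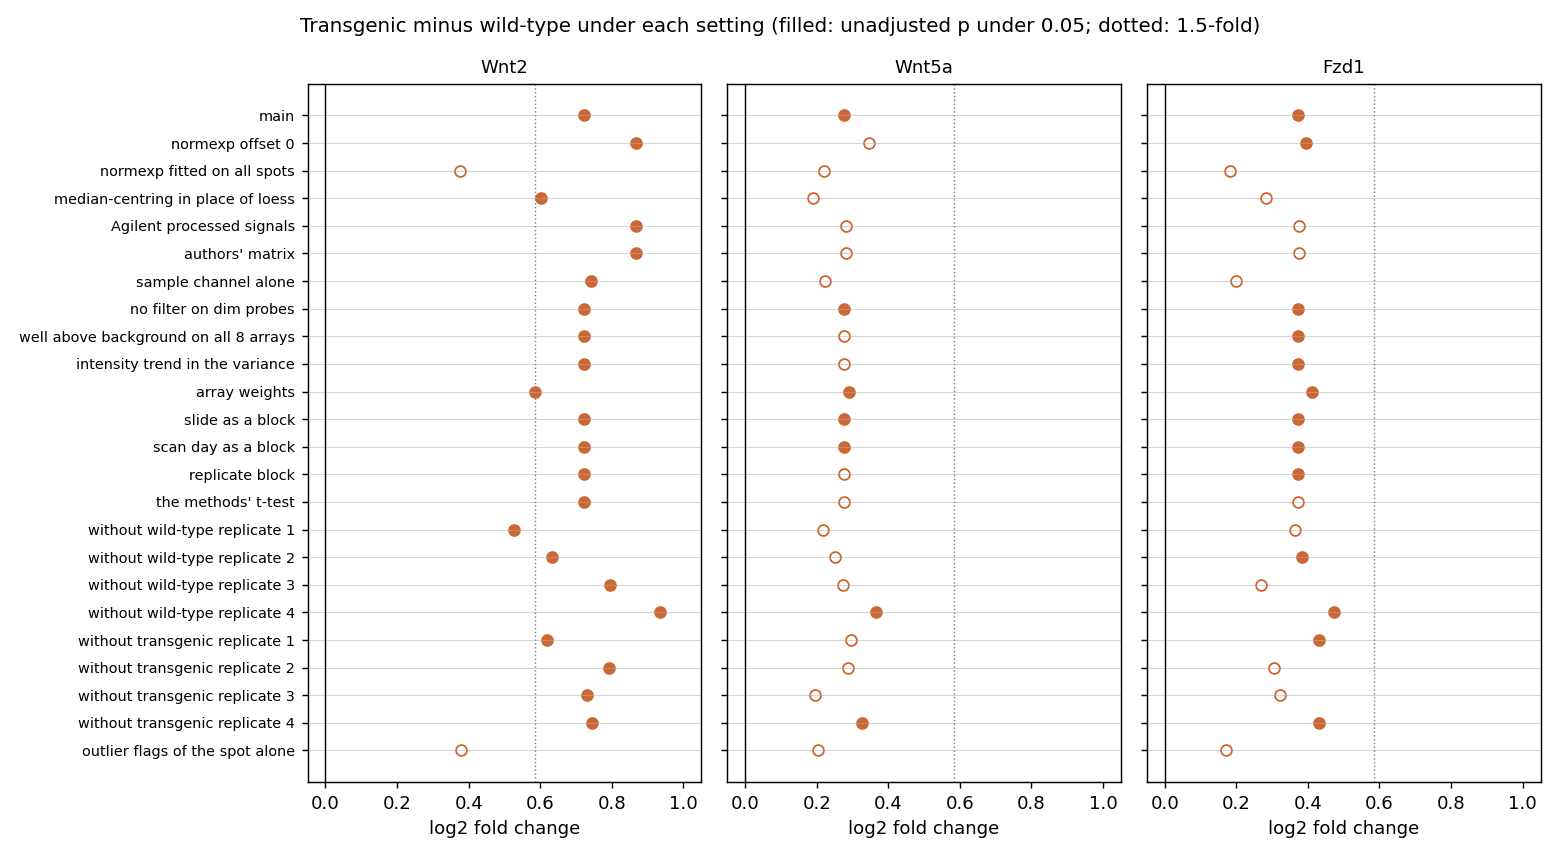
Log2 fold change, transgenic minus wild-type (x axis), of Wnt2, Wnt5a (brighter probe) and Fzd1 under the reported setting at the top and each alternative below it (y axis). Filled points had an unadjusted p under 0.05 and the dotted line marks 1.5-fold. All points lie above 0, between 0.38 and 0.93 for Wnt2, between 0.19 and 0.37 for Wnt5a and between 0.17 and 0.47 for Fzd1, and many of the Wnt5a and Fzd1 points are open.

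Promoters were set beside these values, as RefSeq gives them on mouse build GRCm38.p6, from 250 bases before to 50 after a transcript start. Of the 44 genes, 29 had at least 1. They were searched on both strands for the letters CTTTG followed by any of the 4 pairs of A and T, which span the core that TCF and LEF factors bind. Such a match stood in the promoters of 17.2% of these 29 genes, 5 in number, and of 18.9% of all 27025 genes with a promoter. The 5 were Dkk1, Fzd7, Wnt3, Wnt5b and Wnt11, and none of those tested had a probe past the threshold. Among the genes with higher values past the threshold, Wnt5a had no promoter to search. Shown 5′ to 3′ are the promoters of Wnt2 (chr6:18030396-18030695, minus strand) and Fzd1 (chr5:4758167-4758466, minus strand), which were also higher and in which these letters did not occur. Beside them is that of Dkk1 (chr19:30549447-30549746, minus strand), which held 2 matches, in capitals, that begin 117 and 98 bases before the start. The Dkk1 probes differed by −0.03 and 0.08.
Wnt2: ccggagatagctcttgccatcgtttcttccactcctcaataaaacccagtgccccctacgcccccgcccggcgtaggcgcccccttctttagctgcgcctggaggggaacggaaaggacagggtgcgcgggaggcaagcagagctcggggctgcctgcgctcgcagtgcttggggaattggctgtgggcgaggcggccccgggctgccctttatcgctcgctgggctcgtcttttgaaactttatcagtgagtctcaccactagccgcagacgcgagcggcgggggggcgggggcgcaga
Fzd1: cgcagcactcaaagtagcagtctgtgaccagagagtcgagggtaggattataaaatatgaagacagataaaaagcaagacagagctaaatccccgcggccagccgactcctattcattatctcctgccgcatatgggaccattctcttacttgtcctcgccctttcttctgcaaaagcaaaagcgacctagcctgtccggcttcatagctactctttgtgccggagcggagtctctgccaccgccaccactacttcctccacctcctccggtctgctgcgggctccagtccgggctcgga
Dkk1: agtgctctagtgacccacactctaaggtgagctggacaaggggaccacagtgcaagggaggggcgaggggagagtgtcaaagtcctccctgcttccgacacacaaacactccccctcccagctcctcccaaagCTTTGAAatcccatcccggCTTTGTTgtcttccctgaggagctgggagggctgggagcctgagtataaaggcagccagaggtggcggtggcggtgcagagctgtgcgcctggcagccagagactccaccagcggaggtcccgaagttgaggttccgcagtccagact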

How the data were processed

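Lungs of 4 wild-type and 4 transgenic mice were grouped by sample titles. The deposited scanner files, per the file headers made with Agilent Feature Extraction 10.10.1.1 (the submitters' processing notes name 11.0.1.1), hold an intensity per spot and channel, flags and log10 ratios. The deposited matrix holds the authors' processed log2 ratios with gene symbols, which matched the scanner ratios in scale and direction. Here median intensities were corrected with normexp (offset 50, fitted on spots without an outlier flag of spot or background), flagged and control spots were left out, and ratios were loess-normalized within arrays and averaged over spots of a probe (limma 3.58.1, R 4.3.3). Results of a first run without the background flags were seen before this setting was chosen. Probes well above background on at least 4 of 8 arrays, with at least 2 values per genotype, were tested in limma, transgenic minus wild-type, with Benjamini-Hochberg adjustment over 32645 probes. Intervals are 95%, and permutation tests exact and two-sided. The fit was tested on simulated data. The number of arrays limits the precision.

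Members and lists were chosen with earlier results of these data known. Values are given for tested members with an unadjusted p under 0.05 and the 3 largest differences in each direction at brightest tested probes. They are also given for members known from lung or as pathway readouts, Sfrp5, Fzd8 and Fzd10 of the study's table, and the 5 most variable. Wnt9a, Wnt10a, Wnt3a and other examples were chosen after their values were seen. Alternatives covered background, normalization, filter, variance model, slide, scan day, replicate number, the methods' t-test and each array left out.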

Additional observations from a re-analysis of the deposited data

Results flagged for a closer look

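Of 34 groups of 4 values of the named members, 2 held a value that stood far from the other 3 of its group by Dixon's ratio, which chance gives in about 1 of 20 groups. For Wnt11 in wild-type lungs, WT3 had a log2 ratio of 0.55, and the others lay between −0.02 and 0.01. For Lrp5 in transgenic lungs, TG1 had 0.27, and the others lay between 0.02 and 0.04. The gap to the nearest value, as a part of the group's range, was 0.957 for Wnt11 and 0.922 for Lrp5.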

How the results depend on the processing

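No member and no setting gave an adjusted p under 0.05. The 4 member probes higher at an unadjusted p under 0.05 became 0 with normexp fitted on all spots or with spot flags alone. The run with outlier flags of the spot alone was the first, seen before the reported setting was chosen. They became 1 with median-centring or the sample channel alone and 2 with the methods' t-test. When each array was left out they were 1 to 5 (1 without WT1, TG2 or TG3, 2 without WT2). The share of all probes called higher moved too. It was 1.12% in the reported setting, 0.414% with normexp on all spots and 0.432% with spot flags alone. With median-centring it was 0.368%, with the sample channel alone 0.267% and with the t-test 1.58%. It was 0.775% (without TG2) to 1.86% (without WT4) when each array was left out. Lower member probes, 0 in the reported setting, became 1 with median-centring, Agilent's processed signals, the authors' matrix, no filter or slide as a block. Past 1.5-fold, 1 member probe became 0 with normexp on all spots or spot flags alone. The count became 4 with Agilent's signals or the authors' matrix and 2 with slide as a block. It was 0 to 1 when each array was left out (0 without WT1). Of all probes, 0.23% passed in the reported setting, 0.101% with normexp on all spots and 0.104% with spot flags alone. With Agilent's signals 1.14% passed, with the authors' matrix 1.1% and with slide as a block 0.417%. The 5 other pathway probes higher became 0 with normexp on all spots or spot flags alone. They became 1 with median-centring or the sample channel alone. When each array was left out they were 2 to 10 (3 without WT1, 2 without WT2, 10 without WT4). The shares of all probes higher in these settings are those given above. The 0 lower became 1 with Agilent's signals, the authors' matrix, the sample channel, an intensity trend, scan day or the t-test. Of all probes, 1.23%, 1.23%, 0.717%, 1.03%, 1.14% and 1.07% were lower in those settings, in that order. The lower probes were 0 to 2 when each array was left out (2 without WT3 or TG1). Of all probes, 0.987% were lower without WT3 and 1.97% without TG1. The cause was not tested.

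Differences near 0 changed sign: Dkk3 to −0.029 with normexp on all spots, −0.12 with the sample channel alone and −0.032 with spot flags alone, Sfrp1 to 0.030 with the mean over its probes, Ctnnb1 to 0.016 with array weights, Wnt11 to −0.0026 and the dim Fzd10 probe to 0.016 with median-centring, and the brighter Fzd8 probe to 0.0042 with the mean over probes. Leaving out each array moved Dkk3 between −0.016 and 0.23, Sfrp1 between −0.21 and 0.081, Ctnnb1 between −0.079 and 0.039, Wnt11 between −0.0026 and 0.23 and Fzd4 between −0.34 and 0.069. Without 1 array, Frzb came down to 0.028 (TG3), Wif1 to 0.053 (TG1) and Axin2 to 0.016 (WT3), and Fzd3 came to −0.051 (WT2), Lrp6 to −0.028 (WT3), Wnt5b to −0.068 (WT3) and Wnt7b to −0.0030 (TG4). Wnt2, Wnt5a and Fzd1 stayed positive under every alternative run.

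Replicate numbers did not pair the lungs. Deviations of same-numbered lungs correlated by 0.324, 0.247, −0.0849 and −0.21 across 29494 probes. Lungs 1 and 2, which share slides, correlated best with their own number. Deviations of the lungs on slides 1 to 4 correlated by 0.303, 0.324, 0.247 and 0.0754. The reported limma fit and the permutation tests left slide out. With slide as a block, 3.71% of all probes had an unadjusted limma p under 0.05, beside 2.09% in the reported fit. With replicate number as a block, 2 member probes in place of 4 were higher, beside 1.34% of all probes. Signal near background limits Sfrp5, Fzd10 and the dimmer Fzd8 probe. With an offset of 0 the Fzd10 and Fzd8 differences were −0.35 and 0.48.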
